A study of Homo sapiens with 9 samples.

Results

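DNAJ genes encode the J-domain proteins (HSP40), the co-chaperones that hand client proteins to HSP70. They were taken as the protein-coding genes whose symbol is DNAJA, DNAJB or DNAJC followed by a number, with a mean of at least 10 normalized counts over 9 RNA-seq libraries of A375R cells. Of 45 protein-coding genes of that name, 35 passed, among 15230 genes at this level in the whole table: 3 of 4 in subclass A, 8 of 12 in subclass B and 24 of 29 in subclass C. The rule uses the symbol and the mean level, and not a difference between treatments. A375R is a single line of human A375 melanoma cells resistant to the BRAF inhibitor PLX4032, in which the line is cultured, so that all groups share this background. Treatment lasted 2 h, with 3 biological repeats each, and was DMSO as the control, VHL-r at 10 µM, or R4VPL3-1 at 10 µM. VHL-r is the VHL-binding moiety alone. R4VPL3-1 is the full PROTAC-like molecule, in which that moiety is joined to a part that binds the ubiquitin ligase RNF4. The labels of the control libraries name a wild type with no dose, and they are called DMSO here after the study's design.

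A J-domain protein binds an HSP70 through its J domain and stimulates the ATP hydrolysis with which HSP70 closes on its client, and a nucleotide exchange factor then resets HSP70. Subclass A proteins keep the full domain order of bacterial DnaJ, subclass B proteins lack its zinc finger, and subclass C proteins share only the J domain and serve special tasks in the endoplasmic reticulum (ER), mitochondria, ribosomes or vesicles. Some members, DNAJB1 above all, are classical targets of the heat shock factor HSF1, and others, such as DNAJB9 and DNAJC3, are classical targets of the unfolded protein response.

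Recovered library totals were 26435568 to 32085626 reads, and no pair of replicates was as alike as counting noise alone allows. Of the melanocytic markers looked at, SOX10 (7900 to 17935 normalized counts), MITF (893 to 1994), DCT, S100B and S100A1 were present, PMEL was low at 20.9 to 36.8, MLANA was listed at 0 in all 9 libraries and TYR reached at most 2.14. SOX10 was 17007 to 17935 in DMSO against 7900 to 11216 with either compound, and MITF was 1497 to 1994 against 893 to 1235. Of 10 markers of other cell types, KRT14 (224 to 365), COL1A1 (729 to 1635) and DCN (68.9 to 163) stood highest, KRT5 and VWF reached at most 24.2 and 21.0 normalized counts, and the defining immune, endothelial and epithelial markers PTPRC, CD3E, PECAM1, EPCAM and CDH1 stayed at or below 11.8. KRT14 was also lower in each compound-treated library than in any DMSO library, and the part of these markers in the results below was not tested. All values are scaled per library, so they do not show changes in the number of cells or in total RNA per cell.

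With R4VPL3-1 the family as a whole took up more of the library, and most of that was DNAJB1. The summed normalized count of the 35 genes was 82042, 82300 and 79607 in DMSO replicates 1, 2 and 3, 85782, 86328 and 86320 with VHL-r, and 139729, 131604 and 120577 with R4VPL3-1. The groups did not overlap. Of these sums DNAJB1 made up 7.97% to 8.23% in DMSO, 11.5% to 12.6% with VHL-r and 32.5% to 40.2% with R4VPL3-1. Without DNAJB1 the sums were 73259 to 75660, 75416 to 76061 and 81378 to 83553, so that the DMSO and VHL-r ranges overlapped. The 3 subclass A genes together gave 21913 to 23451 in DMSO, 22447 to 23098 with VHL-r and 28102 to 29590 with R4VPL3-1. This rise was that of DNAJA1, with a mean of 15635 in DMSO and 22009 with R4VPL3-1. DNAJA2 went from 3207 to 2872 and DNAJA3 from 4007 to 4052. The 24 subclass C genes gave 42154 to 43386 over all 9 libraries, with overlapping groups. As sums of counts these weight long and abundant genes more than others.

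The comparison of VHL-r with DMSO asks what the ligase-binding moiety does alone, that of R4VPL3-1 with DMSO what the full molecule does, and that of both compounds, which had the same dose and time, what the rest of the molecule adds. Genes were called at an adjusted p of at most 0.05 by limma on log2(normalized count + 1), adjusted over all 15230 genes. All fold changes below are on that scale. With VHL-r 7 members rose (DNAJB1, DNAJB2, DNAJB6, DNAJB9, DNAJC3, DNAJC4 and DNAJC9) and 3 fell (DNAJA2, DNAJC14 and DNAJC30), that is 20% and 8.57% of 35, against 10.3% and 9.51% of all genes tested. The number of members called higher was 4 without DMSO replicate 2, 4 without DMSO replicate 3, 3 without VHL-r replicate 2 and 3 at an adjusted p of at most 0.01. With R4VPL3-1, 8 members rose against DMSO (DNAJA1, DNAJB1, DNAJB2, DNAJB5, DNAJB6, DNAJB9, DNAJC3 and DNAJC27) and the same 3 fell, which is 22.9% and 8.57% of the members against 13.1% and 11.8% of all genes. These comparisons share the DMSO libraries, so their calls are not independent. Lack of overlap between the libraries compared, given for single genes below, was common. Of all genes tested it held for 34.3% with VHL-r against DMSO, 38.0% with R4VPL3-1 against DMSO and 14.1% between the compounds. Of the 35 members it held for 19, 17 and 12.

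Between the compounds, 3 members were higher with R4VPL3-1 (DNAJA1, DNAJB1 and DNAJB9), 8.57% of the 35 against 1.14% of all genes tested. None was called lower with limma, edgeR or DESeq2, against 0.729% of all genes. At an unadjusted p under 0.05 each of these tools had 1 member lower, which with limma was DNAJC3. In all, 22 of the 35 members were called in no comparison, and the share of all genes called in none was not counted.

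The subclasses differed in how many members were called and in their medians. Of all genes tested, 19.8% were called with VHL-r, 24.9% with R4VPL3-1 and 1.87% between the compounds. In the same order, 50%, 62.5% and 25% of subclass B and 20.8%, 16.7% and 0% of subclass C were called. For the 3 genes of subclass A the shares were 33.3%, 66.7% and 33.3%. In subclass B, 4 of 8 rose with VHL-r, 5 of 8 with R4VPL3-1 and 2 of 8 between the compounds, none fell, and the median log2 fold changes were 0.15, 0.32 and 0.14. In subclass C, 3 rose and 2 fell of 24 with VHL-r, 2 rose and 2 fell with R4VPL3-1, and 0 were called between the compounds by limma, edgeR or DESeq2, with 1, DNAJC3, at an unadjusted p under 0.05 in each. Its medians were -0.014, -0.016 and 0.0084, beside medians of -0.0045, -0.0063 and -0.0056 over all genes tested. Subclass A had 1 fall with VHL-r, 1 rise and 1 fall with R4VPL3-1, and 1 rise between the compounds among its 3 members. The medians of subclass A were -0.021, 0.016 and 0.13. Between the compounds its median was thus about that of subclass B.

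**Figure D1:**
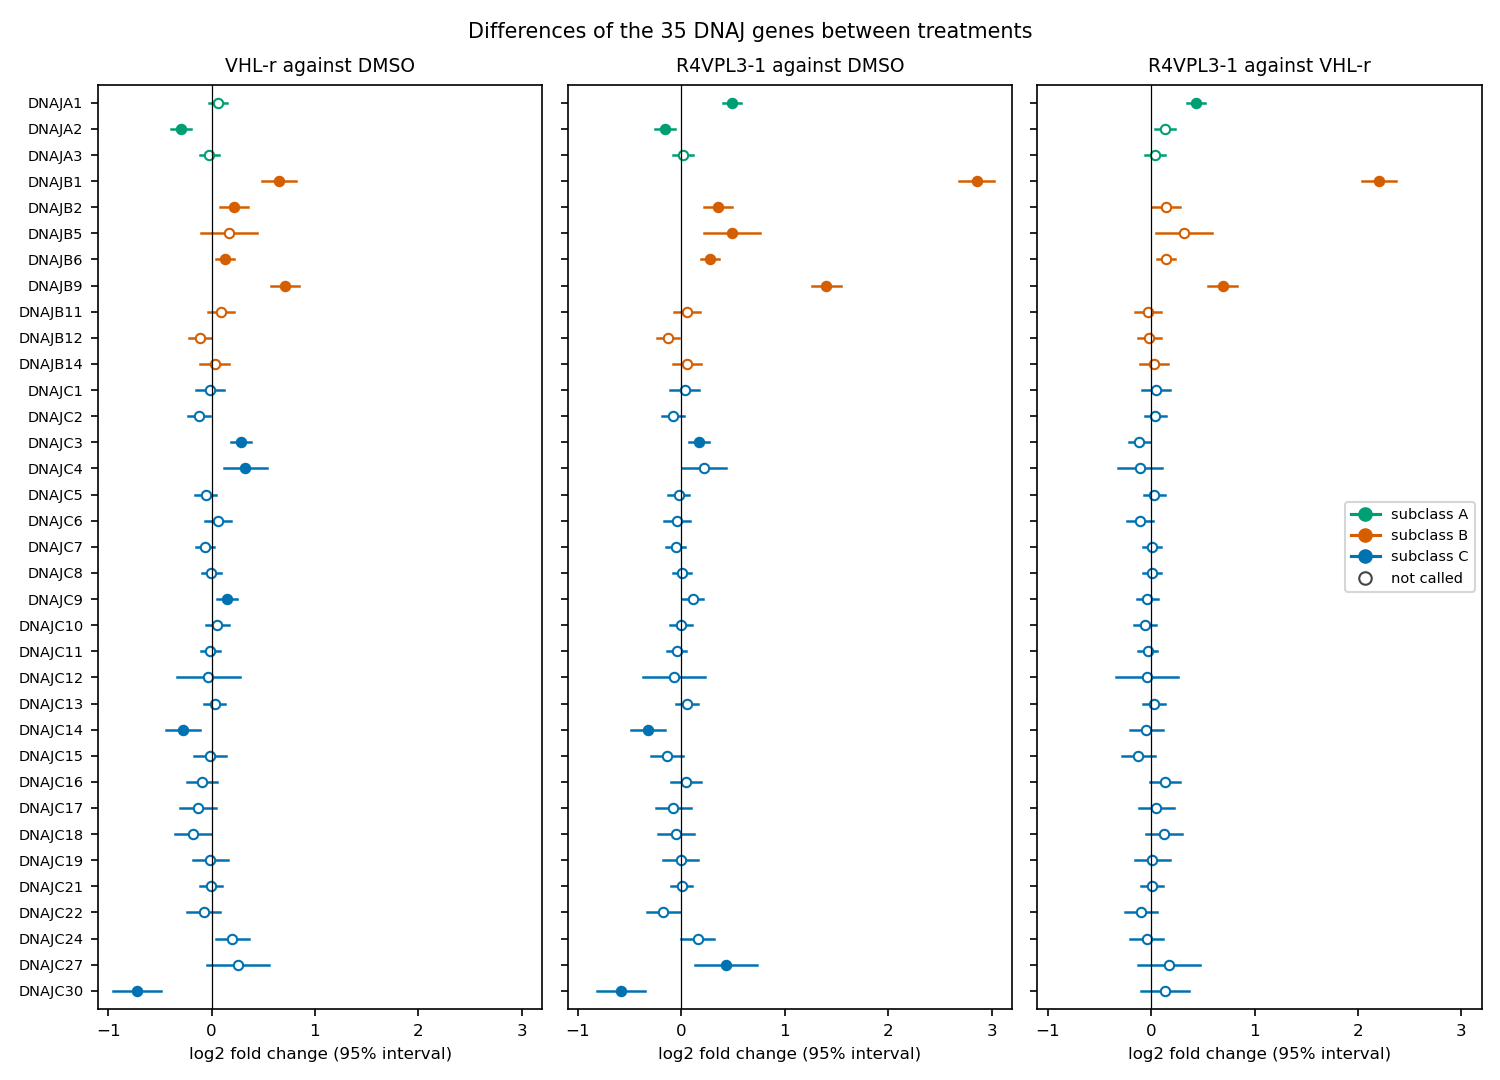
Points are the log2 fold changes of the 35 genes in each comparison and lines their 95% limma intervals, coloured by subclass, with open points for genes that were not called. DNAJB1 stands alone at 2.86 and 2.20 in the panels of R4VPL3-1, DNAJB9 follows at 1.40 and 0.69, and most subclass C intervals cross 0 in each panel.

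Of 8 genes listed as folding clients in the cytosol and nucleus, 6 were measurable. With R4VPL3-1 against DMSO all 6 were called, 5 higher and 1 lower. The list was made with earlier results of these data known and holds only subclass A and B genes. DNAJC7, which was placed in no compartment, was not called in that comparison, at -0.06 on the log2 scale (limma adjusted p = 0.392). Of all genes tested 24.9% were called in that comparison. DNAJB1 (ENSG00000132002, GRCh38 chr19:14514769-14560391), the stress-inducible HSP40 that works with HSP70 on misfolded and aggregated proteins, had 6751, 6640 and 6348 normalized counts in DMSO. With VHL-r it had 9896, 10267 and 10904, and with R4VPL3-1 56176, 49152 and 39199. The 3 groups did not overlap, and the R4VPL3-1 libraries were spread the most, with replicate 3 the lowest. Against DMSO it was 1.57-fold higher with VHL-r (95% interval 1.40 to 1.77, limma adjusted p = 4.19e-06) and 7.24-fold higher with R4VPL3-1 (6.45 to 8.13, limma adjusted p = 6.07e-16). These intervals rest on 1 spread pooled over the 3 groups, and so do not show the wider spread with R4VPL3-1. With the robust option of limma the adjusted p for VHL-r against DMSO was 0.00916. R4VPL3-1 exceeded VHL-r by 4.61-fold (4.10 to 5.17, limma adjusted p = 1.14e-13), which ranked 11 of 15230 genes by fold change, and without R4VPL3-1 replicate 3 or any other 1 library this log2 fold change stayed between 2.08 and 2.34.

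DNAJA1 (ENSG00000086061, chr9:33025273-33039907), a constitutive partner of HSC70 that carries a farnesyl group, had 15818, 16116 and 14970 normalized counts in DMSO, 16050, 16559 and 16286 with VHL-r, and 22677, 22063 and 21289 with R4VPL3-1. DMSO and VHL-r overlapped, and all 3 R4VPL3-1 libraries lay above them. The rise with R4VPL3-1 was 1.41-fold against DMSO (1.33 to 1.49, limma adjusted p = 1.29e-08) and 1.35-fold against VHL-r (1.27 to 1.43, limma adjusted p = 7.64e-07). For VHL-r against DMSO the fold was 1.04, with an interval of 0.98 to 1.11 (limma adjusted p = 0.357).

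DNAJA2, another subclass A partner of HSC70 in refolding, moved the other way. It had 3288, 3271 and 3061 normalized counts in DMSO, 2531, 2652 and 2667 with VHL-r, and 2855, 2883 and 2878 with R4VPL3-1. The lowest group was VHL-r, with R4VPL3-1 between it and DMSO, and no groups overlapped. It fell with VHL-r by 0.29 on the log2 scale (SE 0.046, limma adjusted p = 8.77e-05) and with R4VPL3-1 by 0.16 (SE 0.046, limma adjusted p = 0.0152), and the latter call was lost without DMSO replicate 1, DMSO replicate 2 or R4VPL3-1 replicate 1, with adjusted p of up to 0.0743. The difference of 0.13 between the compounds was not called (limma adjusted p = 0.215).

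DNAJB6, which keeps polyglutamine proteins from aggregating, had 4241, 4166 and 4128 normalized counts in DMSO, 4572, 4563 and 4615 with VHL-r, and 5227, 5003 and 4933 with R4VPL3-1. Its rise with R4VPL3-1 was 0.27 on the log2 scale (SE 0.042, limma adjusted p = 3.98e-05). That with VHL-r was 0.13 (SE 0.042, limma adjusted p = 0.0271), and it lost its call in 6 of the 19 alternatives without a replicate block, among them leaving out DMSO replicate 2 or 3 or any 1 VHL-r replicate.

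DNAJB2, which brings ubiquitinated clients to the proteasome, had 742, 796 and 742 normalized counts in DMSO, 826, 890 and 939 with VHL-r, and 999, 982 and 941 with R4VPL3-1. It rose by 0.22 (SE 0.065, limma adjusted p = 0.0202) and 0.36 (SE 0.065, limma adjusted p = 0.000269). The former was no longer called when DMSO replicate 1 or 3 or VHL-r replicate 2 or 3 was left out. DNAJB5, a relative of DNAJB1 at a far lower level, had 89.0, 95.4 and 89.2 normalized counts in DMSO, 110.1, 99.8 and 98.3 with VHL-r, and 127.0, 131.3 and 126.3 with R4VPL3-1. Its 0.49 with R4VPL3-1 was called (SE 0.13, limma adjusted p = 0.00846), and its 0.17 with VHL-r was not (limma adjusted p = 0.429).

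DNAJB1, DNAJB2, DNAJB5, DNAJB6 and DNAJB9 each had their libraries in the order DMSO, VHL-r, R4VPL3-1 without overlap. These are 5 of the 8 subclass B members and the only ones of the 35, while 1.79% of all genes tested had this order. The reverse order was found in 0 members and in 1.94% of all genes. This count was made after the values were seen. Between the compounds DNAJB2, DNAJB5 and DNAJB6 were not called (limma adjusted p = 0.469, 0.374 and 0.111), and DNAJB5 was not called with VHL-r. The DNAJB2 groups were barely apart, at 939 in the highest VHL-r library and 941 in the lowest R4VPL3-1 library.

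The remaining genes of the cytosolic list were too low to test. DNAJA4 had 5.45 to 7.10 normalized counts in DMSO, 1.00 to 6.15 with VHL-r and 0 to 1.87 with R4VPL3-1, and DNAJB4 had 0.93 to 4.00 over all libraries. Both are described as inducible by heat in other cells.

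**Figure D2:**
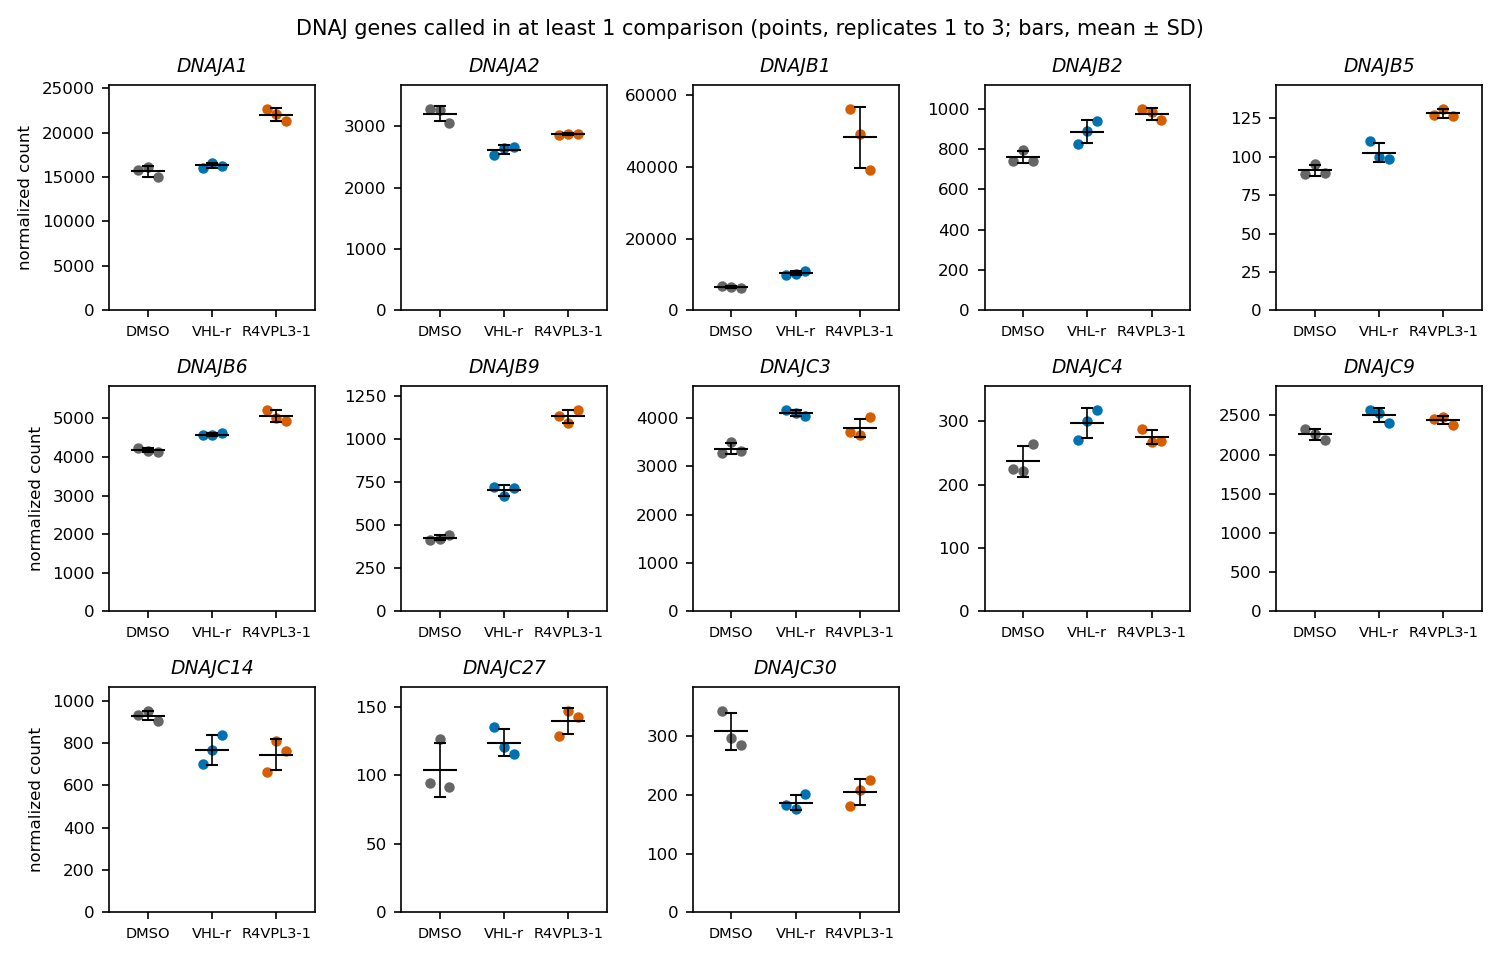
Each panel gives the normalized counts of 1 gene called in at least 1 comparison, for replicates 1 to 3 of each treatment, with the mean and SD as bars and the axis from 0. DNAJB1, DNAJB2, DNAJB5, DNAJB6 and DNAJB9 step up from DMSO to VHL-r to R4VPL3-1, DNAJA1 is raised in R4VPL3-1 alone, and DNAJC30 is at about the same lower level with both compounds. Of the genes that step up, only DNAJB1 and DNAJB9 were called between the compounds.

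The promoter stretches of 4 of these genes are shown because their transcripts moved most or because they hold a heat shock element of 3 units. Windows from 250 bases before to 50 after the transcript start (RefSeq, GRCh38.p14) were given for 32 of the 35 members, 41 windows in all, and not for DNAJC1, DNAJC22 and DNAJC24. A heat shock element, the binding motif of HSF1, was searched on both strands as 2 units in alternating orientation, GAANNTTC or TTCNNGAA, and as 3 units, which extend the former by NNGAA or NNTTC and therefore always contain a 2-unit match. Printed are the 200 bases before and the first 20 bases of the transcript, 5′ to 3′ in the gene's sense, with every match in capitals, for DNAJB1 (chr19:14518378-14518597, minus strand), DNAJA1 (chr9:33025073-33025292, plus strand), DNAJB6 (chr7:157336804-157337023, plus strand) and DNAJB9 (chr7:108569674-108569893, plus strand).
DNAJB1: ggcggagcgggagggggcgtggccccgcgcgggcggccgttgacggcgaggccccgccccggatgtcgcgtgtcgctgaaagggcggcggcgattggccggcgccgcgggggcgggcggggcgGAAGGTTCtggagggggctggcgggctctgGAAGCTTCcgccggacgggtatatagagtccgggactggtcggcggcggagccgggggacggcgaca
DNAJA1: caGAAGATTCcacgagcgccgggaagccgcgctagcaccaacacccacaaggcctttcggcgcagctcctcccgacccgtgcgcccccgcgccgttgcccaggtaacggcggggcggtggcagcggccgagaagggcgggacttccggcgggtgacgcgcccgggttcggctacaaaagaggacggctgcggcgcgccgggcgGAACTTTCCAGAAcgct
DNAJB6: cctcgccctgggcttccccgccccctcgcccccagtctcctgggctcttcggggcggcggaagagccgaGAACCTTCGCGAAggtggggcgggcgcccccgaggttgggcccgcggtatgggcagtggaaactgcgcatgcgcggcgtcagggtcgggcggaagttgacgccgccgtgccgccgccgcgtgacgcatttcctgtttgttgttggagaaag
DNAJB9: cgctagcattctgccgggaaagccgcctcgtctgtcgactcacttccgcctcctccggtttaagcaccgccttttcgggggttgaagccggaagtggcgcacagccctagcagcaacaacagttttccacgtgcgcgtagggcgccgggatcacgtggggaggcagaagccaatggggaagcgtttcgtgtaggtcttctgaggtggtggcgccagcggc

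The 3-unit element occurred in 2 of the 41 member windows, those of DNAJA1, from base 4 of the transcript, and DNAJB6, from position -131 relative to the start, and in 0.49% of all 35116 windows. The 2-unit element occurred in windows of 5 members (DNAJA1, DNAJB1, DNAJB6, DNAJC6 and DNAJC15), 14.6% of the member windows against 13.5% of all. In the DNAJB1 stretch it began at positions -77 and -47. DNAJB1 has 3 windows, of which the one with most matches is printed, while another had 1 match, at base 2 of the transcript, and the remaining one had 0. The DNAJB9 stretch had no match. Of the motifs of the unfolded protein response, the ER stress element, CCAAT and CCACG with 9 bases between them on either strand, was in 0 member windows and 0.077% of all, and TGACGTG was in 1, that of DNAJC10, which was not called, and in 1.97% of all. A match is a description of these letters only, and the files do not say which of several starts of a gene was in use.

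In the endoplasmic reticulum group 2 of 10 members rose and 1 fell with each compound, and 7 were called in no comparison. The share called was 30% with each compound, against 19.8% of all genes tested with VHL-r and 24.9% with R4VPL3-1. DNAJB9 (ERdj4, ENSG00000128590, chr7:108569867-108574850), which recruits BiP to the stress sensor IRE1 and to clients bound for degradation, had 416, 421 and 443 normalized counts in DMSO, 719, 666 and 717 with VHL-r, and 1132, 1092 and 1168 with R4VPL3-1. The groups lay well apart. It was 1.64-fold higher with VHL-r (1.49 to 1.80, limma adjusted p = 8.42e-08) and 2.65-fold higher with R4VPL3-1 (2.41 to 2.91, limma adjusted p = 1.34e-12). Between the compounds it was 1.61-fold higher with R4VPL3-1 (1.47 to 1.77, limma adjusted p = 7.34e-07). With VHL-r alone it had the largest rise of the 35 members, 0.71 on the log2 scale, ahead of DNAJB1 at 0.65. The difference between DNAJB9 and DNAJB1 was within their SE of 0.066 and 0.080.

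DNAJC3 (P58IPK, chr13:95677139-95794988), a lumenal co-chaperone of BiP also known as an inhibitor of PERK and PKR, had 3284, 3496 and 3315 normalized counts in DMSO, 4173, 4097 and 4042 with VHL-r, and 3716, 3659 and 4013 with R4VPL3-1. Here the VHL-r libraries were the highest. It rose by 0.29 with VHL-r (SE 0.047, limma adjusted p = 0.000125) and by 0.17 with R4VPL3-1 (SE 0.047, limma adjusted p = 0.00903). The difference between the compounds, -0.11 with an interval of -0.21 to -0.02, was not called (limma adjusted p = 0.381).

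DNAJC14, an ER membrane protein, had 932, 953 and 907 normalized counts in DMSO, 700, 768 and 840 with VHL-r, and 664, 809 and 763 with R4VPL3-1. It fell by 0.28 (SE 0.078, limma adjusted p = 0.014) and 0.32 (SE 0.078, limma adjusted p = 0.00371), and the former was no longer called when DMSO replicate 2 or VHL-r replicate 1 was left out. On the same strand 23.2% of its exon bases also belong to another annotated gene, ENSG00000257390, so reads from the locus could be split or lost, and its level is uncertain.

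The ER members that were not called were DNAJB11, DNAJB12, DNAJB14, DNAJC1, DNAJC10, DNAJC16 and DNAJC18. DNAJB11 (ERdj3), which helps BiP hold unfolded chains, had 987 to 1026 normalized counts in DMSO, 1050.8 to 1110 with VHL-r and 978 to 1118 with R4VPL3-1, which are 0.09 and 0.06 on the log2 scale against DMSO (limma adjusted p = 0.357 and 0.552). DNAJC10 (ERdj5), a reductase that opens disulphides of clients before degradation, had 2660 to 2924, 2864 to 3015 and 2701 to 3020. DNAJC1 had 731 to 794, 695 to 786 and 768 to 776. DNAJB12 and DNAJB14, partner proteins of the ER membrane that offer clients to HSC70, had log2 fold changes of -0.13 and 0.06 with R4VPL3-1 (limma adjusted p = 0.0792 and 0.591). The former was called without R4VPL3-1 replicate 1, at -0.17 (limma adjusted p = 0.0437). DNAJC18 had -0.18 and DNAJC16 -0.09 with VHL-r (limma adjusted p = 0.148 and 0.416).

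Of the 5 mitochondrial members, 1 fell with each compound. That is 20% called, about the share of all genes tested, 19.8% with VHL-r and 24.9% with R4VPL3-1. DNAJC30 (chr7:73680918-73683453), a protein of the inner membrane known for its part in the repair of respiratory complex I and in ATP synthesis, had 343, 296 and 285 normalized counts in DMSO, 183, 175 and 201 with VHL-r, and 181, 209 and 225 with R4VPL3-1. All 6 compound-treated libraries lay below all 3 DMSO libraries, and those of VHL-r and R4VPL3-1 overlapped. It fell by 0.72 with VHL-r (SE 0.11, limma adjusted p = 6.81e-05) and by 0.59 with R4VPL3-1 (SE 0.11, limma adjusted p = 0.000442). Between the compounds it differed by 0.13, with an interval of -0.10 to 0.36 (limma adjusted p = 0.822). It had the largest fall of the 35 members in both comparisons with DMSO. DNAJA3 (Tid1, the co-chaperone of mitochondrial HSP70), DNAJC11 (of the cristae), DNAJC15 and DNAJC19 (at the protein import motor) were not called, with log2 fold changes of -0.14 to 0.02 against DMSO with R4VPL3-1. DNAJA3 had 3882 to 4074 normalized counts in DMSO, 3866 to 4097 with VHL-r and 3935 to 4163 with R4VPL3-1.

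No member of the ribosome and RNA group (DNAJC2, DNAJC8, DNAJC17 and DNAJC21) or of the vesicle and endosome group (DNAJC5, DNAJC6 and DNAJC13) was called with limma, edgeR or DESeq2 in any comparison, at log2 fold changes of -0.13 to 0.06 over both comparisons with DMSO. Of all genes tested limma called 19.8% with VHL-r, 24.9% with R4VPL3-1 and 1.87% between the compounds. DNAJC2, which sits on the ribosome, was the only one of the 7 at an unadjusted p under 0.05, with VHL-r by each tool, at -0.12 on the log2 scale (limma adjusted p = 0.0949).

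Of the 7 members placed in no compartment, 3 were called, each in 1 comparison. That is 28.6% with VHL-r and 14.3% with R4VPL3-1, against 19.8% and 24.9% of all genes tested. DNAJC9, a histone chaperone as well as a J-domain protein, had 2327, 2260 and 2187 normalized counts in DMSO, 2573, 2532 and 2407 with VHL-r, and 2459, 2478 and 2378 with R4VPL3-1. Its rise of 0.15 with VHL-r (SE 0.048, limma adjusted p = 0.0328) lost its call in 5 of 19 alternatives, with adjusted p of up to 0.126. DNAJC4 had 224, 221 and 265 normalized counts in DMSO, 271, 301 and 319 with VHL-r, and 288, 268 and 270 with R4VPL3-1. Its 0.33 with VHL-r (SE 0.10, limma adjusted p = 0.0249) was lost in 4 of 19, and 10.6% of its exon bases also belong to NUDT22. DNAJC27, a Rab-like GTPase with a J domain, had 94.4, 126.9 and 91.3 in DMSO, 135.1, 120.8 and 115.7 with VHL-r, and 128.9, 147.3 and 142.4 with R4VPL3-1. Its 0.43 with R4VPL3-1 (SE 0.14, limma adjusted p = 0.0321) was lost in 5 of 19, DESeq2 included. DNAJC9 was lost without the filter on low values and without DMSO replicate 2 or 3 or VHL-r replicate 1 or 2, DNAJC4 without DMSO replicate 1 or 2 or VHL-r replicate 2 or 3, and DNAJC27 without DMSO replicate 1 or 3 or R4VPL3-1 replicate 2 or 3. DNAJC7, DNAJC12, DNAJC22 and DNAJC24 were not called. DNAJC24, at 0.20 with VHL-r (limma adjusted p = 0.0713, interval 0.04 to 0.36), was called without VHL-r replicate 3, at 0.29 (limma adjusted p = 0.006). Other calls gained were those of DNAJC4 with R4VPL3-1 without DMSO replicate 3 (limma adjusted p = 0.0473) and of DNAJC9 with R4VPL3-1 under upper quartile scaling (limma adjusted p = 0.0488).

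For the 32 members that were not called between R4VPL3-1 and VHL-r, the intervals say how large a difference these data leave room for. In 23 of them the 95% interval lay within 1.2-fold either way. The exceptions were DNAJB2, DNAJB5, DNAJC4, DNAJC12, DNAJC15, DNAJC16, DNAJC18, DNAJC27 and DNAJC30, whose bounds reached from -0.34 (DNAJC12) to 0.59 (DNAJB5) on the log2 scale. In 5 of the 32 the interval did not include 0, with DNAJA2, DNAJB2, DNAJB5 and DNAJB6 higher and DNAJC3 lower with R4VPL3-1, at adjusted p of 0.111 or more. DNAJB6 came nearest to a call, at 0.14 (limma adjusted p = 0.111), and its adjusted p was 0.0501 to 0.544 over 19 alternatives. All 24 subclass C members had log2 differences of -0.12 to 0.17 between the compounds. These intervals are for single genes and are not adjusted for their number.

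Per kb of annotated exon (GENCODE 44) DNAJA1 had the highest level in each treatment. Its level was 5860 normalized counts per kb in DMSO, 6109 with VHL-r and 8249 with R4VPL3-1. DNAJC8, a spliceosome protein, was next in DMSO, at 1363 per kb. DNAJB1 had a level of 804 per kb in DMSO, 1265 with VHL-r and 5884 with R4VPL3-1, and its rank went from 3 in DMSO and VHL-r to 2 with R4VPL3-1. DNAJB9 had 168, 276 and 446 per kb, at ranks 18, 15 and 9, and DNAJC30 had 121.5, 73.5 and 80.8, at ranks 21, 28 and 28. The lowest in DMSO were DNAJC27 at 18.5 and DNAJB5 at 15.5 per kb. Annotated exons include those of rare transcripts, so genes with many of them, such as DNAJB1 with 8188 exon bases, read lower than their main transcript would. The order of DNAJA1 and DNAJB1 with R4VPL3-1 rests on these lengths, since DNAJB1 had the higher mean normalized count, 48176 against 22009.

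Closest to the threshold of 10 were, above it, DNAJB5 at a mean of 107, DNAJC12 at 121 and DNAJC27 at 123 normalized counts, and, below it, DNAJC28 at 7.35 and DNAJA4 at 3.75. The other 8 below it were DNAJB4, DNAJB7, DNAJB8, DNAJB13, DNAJC5B, DNAJC5G, DNAJC25 and DNAJC25-GNG10, at 2.41 or less. DNAJB7, DNAJB8, DNAJC5G and DNAJC25 were listed at 0 in all 9 libraries. DNAJC25 and DNAJC25-GNG10 share exons on the same strand, so neither level can be read as that of the gene.

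The partners of the family were looked at in lists chosen by function. Of 12 HSP70 genes 10 were tested, 5 rose with VHL-r, 8 with R4VPL3-1 and 4 were higher with R4VPL3-1 than with VHL-r. None fell, so 50%, 80% and 40% were called, against 19.8%, 24.9% and 1.87% of all genes tested. Each count includes both HSPA1A and HSPA1B. HSPA6, listed at 0 in all libraries, and HSPA12B were too low. HSPA8 (HSC70), the constitutive partner, had 94787, 92944 and 87229 normalized counts in DMSO, 99144, 98906 and 95725 with VHL-r, and 161729, 156767 and 148481 with R4VPL3-1. All R4VPL3-1 libraries lay far above the others, as for DNAJA1. The log2 fold changes were 0.10 for VHL-r against DMSO (limma adjusted p = 0.156) and 0.67 between the compounds (limma adjusted p = 3.8e-09). HSPA1A had 561 to 646, 882 to 1089 and 13459 to 18274 normalized counts, though reads of it and its near-identical copy HSPA1B cannot be told apart with certainty. HSPA5 (BiP), the ER partner of DNAJB9 and DNAJC3, rose by 0.21 and 0.26 on the log2 scale (limma adjusted p = 0.00293 and 0.000337). HSPA9, the mitochondrial partner, had 0.0009 and 0.02 (limma adjusted p = 0.99 and 0.735).

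Of 13 nucleotide exchange factors, 3 rose and 1 fell with VHL-r, 6 rose and 2 fell with R4VPL3-1, and 2 were higher with R4VPL3-1 than with VHL-r. These were HSPH1 at 0.49 (limma adjusted p = 1.16e-06) and BAG3 at 1.04 (limma adjusted p = 1.86e-07). Higher or lower, 30.8%, 61.5% and 15.4% of these factors were called, against 19.8%, 24.9% and 1.87% of all genes tested. SEC63, HSCB and GAK, J-domain genes with other symbols, were not called with limma, edgeR or DESeq2 in any comparison and were at no unadjusted p under 0.05, with log2 fold changes of -0.05 to 0.07.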

How the data were processed

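RNA-seq libraries of A375R cells treated with DMSO, VHL-r or R4VPL3-1 were used, 3 per treatment, grouped by their labels. As the methods and labels state, the authors aligned strand-specific single reads of poly(A) RNA to GRCh38 with STAR, counted them per gene with htseq-count, and deposited as signal the counts divided by size factors of DESeq2 (1.36.0), rounded to 2 decimals. Dividing by what 1 read is worth gave whole reads for 100% of values above 0, with a tolerance for that rounding.

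The test was limma (3.58.1, R 4.3.3) with trend on log2(value + 1), in a fit of 9 libraries without a block, over 15230 genes with a mean of at least 10, with Benjamini-Hochberg adjustment over all of them. The single-factor design and the threshold follow the study's methods. The scripts were tested on simulated data. Alternatives were edgeR (4.0.16) with the recovered reads, DESeq2 (1.42.0) with the same reads, with and without a replicate block, and, within limma, a replicate block, pseudocounts of 0.1 and 5, a minimum mean of 50 or none, rescaling by TMM or the upper quartile, the robust option, a fit on the 6 libraries of a comparison, leaving out each library in turn, and a threshold of 0.01.

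Members and lists were chosen with earlier results of these data known. Named were all subclass A and B members and the subclass C members called in any comparison or placed in the ER, and the rest by range or count, with a few named beside their group. Exons came from GENCODE 44, which matched all 45 genes, and promoters from RefSeq. Coordinates are on GRCh38. A further gene of the J-domain genes with other symbols is not reported here.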

Additional observations from a re-analysis of the deposited data

How the results depend on the processing

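Of the counts of members called, the number higher with VHL-r moved by over 1.5 times from its 7: it was 3 at an adjusted p of at most 0.01 and 3 to 7 with 1 library left out, lowest without VHL-r replicate 2. The other counts stayed within 1.5 times under all 22 settings, and the subclass medians within the spread of replicates, although with 1 library left out those of subclass C ranged from -0.034 to -0.0023 with VHL-r, from -0.037 to -0.0018 with R4VPL3-1 and across 0, from -0.012 to 0.0084, between the compounds. DNAJB1, DNAJB9 and DNAJC30 kept both calls against DMSO under 19 alternatives. Over the named genes and all settings, 1268 values kept direction and call, 32 lost their call, 3 gained one and 20 turned sign, the last all in small log2 fold changes that were not called. For DNAJC10 with R4VPL3-1 against DMSO, -0.0040 became 0.0055 with TMM, 0.014 with upper quartile scaling and 0.0054 with edgeR. The cause was not tested.

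With 1 library left out the log2 fold change was -0.040 to 0.072 for DNAJB14 and -0.049 to 0.039 for DNAJC1 with VHL-r, and -0.0064 to 0.037 for DNAJA3 and -0.054 to 0.027 for DNAJC10 with R4VPL3-1, all against DMSO. Between the compounds it was -0.077 to 0.019 for DNAJB11, -0.059 to 0.013 for DNAJB12, -0.015 to 0.097 for DNAJB14, -0.0076 to 0.080 for DNAJC1 and -0.11 to 0.035 for DNAJC14.

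Same-numbered libraries had correlations of deviations of -0.006 to 0.12, above 0.1 in 2 of 9, and different-numbered ones -0.15 to 0.10. Whether the replicate numbers pair the libraries was not tested. With a replicate block the members called were 8 higher and 3 lower with VHL-r, 8 and 3 with R4VPL3-1, and 3 and 0 between the compounds, with DNAJC24 gained with VHL-r (adjusted p = 0.0393). With the block in DESeq2 they were 6 and 3, 6 and 3, and 3 and 0, and the calls lost were those of DNAJC4 with VHL-r (adjusted p = 0.0763) and of DNAJB5 and DNAJC27 with R4VPL3-1 (adjusted p = 0.0579 and 0.11). Of 18 comparisons of a library with those of another treatment, 12 were closest to the library of the same number. Over all genes edgeR called 1593 higher and 1441 lower with VHL-r, 2127 and 1730 with R4VPL3-1, and 194 and 103 between the compounds, and DESeq2 called 1371 and 1316, 1743 and 1629, and 191 and 125. Counting error limits members of about 100 normalized counts, such as DNAJB5, DNAJC12 and DNAJC27, whose SE were 0.13 to 0.14.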

Other observations

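Outside the protein-coding members, 37 features of other biotypes carry a DNAJ symbol. DNAJB5-DT, the divergent transcript beside DNAJB5, was listed at 0 in all 3 DMSO libraries and had 4.00, 7.35 and 7.17 normalized counts with VHL-r and 10.3, 2.98 and 2.14 with R4VPL3-1. DNAJC3-DT had 59.9, 64.0 and 62.9 in DMSO, 41.0, 48.3 and 55.3 with VHL-r, and 107.4, 77.6 and 61.0 with R4VPL3-1. Its VHL-r libraries lay below all others while those of DNAJC3 itself lay above all others. The differences of these transcripts were not tested as part of the family.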
